A study of Sus scrofa with 6 samples.

Results

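The 10 genes described here encode the main enzymes that use up nicotinamide adenine dinucleotide (NAD): the sirtuins SIRT1 to SIRT7, the poly(ADP-ribose) polymerases PARP1 and PARP2, and the NAD glycohydrolase CD38. They were chosen by name, and all 10 had a row among the 29861 genes of the deposited expression table. RNA was sequenced from 6 samples of pig oocytes, 2 from control oocytes, 2 from oocytes cultured under heat stress, and 2 from heat-stressed oocytes that were also given nicotinamide mononucleotide (NMN), the precursor from which NAD is made in a single step. The control oocytes received neither treatment, and the oocytes came from abattoir ovaries and were pooled within a group. The labels give the germinal vesicle (GV) stage and 24 h for every sample, whereas the methods describe the sequenced oocytes as metaphase II. Neither the labels nor the methods say whether both samples of a group came from separate collections, so the P-values below measure only the spread between these samples, which may be technical.

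Sirtuins remove acetyl and other acyl groups from lysines and split 1 NAD for each group removed, so that their activity depends on the NAD supply. SIRT1, SIRT6 and SIRT7 work mainly in the nucleus, SIRT2 mainly in the cytoplasm, and SIRT3, SIRT4 and SIRT5 in mitochondria. PARP1 and PARP2 bind DNA breaks and build chains of ADP-ribose from NAD, and CD38 cleaves NAD at the cell surface and in membranes. In the oocyte, which is largely silent in transcription while it matures, mRNA levels depend mainly on stored maternal transcripts and on how long these last.

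The values are FPKM, fragment counts that are scaled to transcript length and to the number of mapped fragments, so that levels of different genes can be set side by side. The depth behind them is unknown, because read counts were not used here. The sum of FPKM over all genes ranged from 163929 to 290136 per sample, and the genes of the mitochondrial genome took 61.7% to 66.4% of it in control, 62.4% and 71.6% in heat-stressed and 74.2% to 74.7% in NMN-supplemented oocytes. In heat-stressed replicate 1 the pseudogene LOC100513953 stood at 40366 FPKM and was listed at 0 in the other 5 samples. Of 13 oocyte markers 12 had a mean of at least 1 FPKM, led by BMP15 (1771 FPKM), while none of 17 cumulus and granulosa markers and none of 9 blood markers did. The summed level of the oocyte markers, mostly BMP15, was 3476 to 3735 FPKM for control samples, 3403 to 3404 FPKM with heat stress and 2938 to 3200 FPKM with NMN. Of the 12, limma called 4 lower with heat stress (ZP3, ZP4, GDF9 and ZAR1), 1 lower with NMN against heat stress (ZAR1) and 6 lower with NMN against control (the same 4, NLRP5 and MOS) at an unadjusted P under 0.05, and 0 higher in any comparison. Of all tested genes 22.8%, 13.6% and 41.3% were called in these comparisons, in that order. The median log2 differences of the 12 markers were −0.31, −0.17 and −0.40, beside 0.05, 0.08 and 0.11 over all tested genes. The part of these markers in the differences below was not tested. The summed level of the cumulus and granulosa markers was 0.610 to 0.894 FPKM for control samples, 0.398 to 1.49 FPKM with heat stress and 0.996 to 1.07 FPKM with NMN, with 4 of them at 0 in all 6 samples. Housekeeping GAPDH, at 0.208 to 0.315 FPKM in the other samples, was listed at 0 in heat-stressed replicate 1, so a value of 0 may be a failed estimate, and no mean is given for a group that holds a 0.

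SIRT1 and PARP1 were the most abundant members in 5 of the 6 samples. In heat-stressed replicate 1 SIRT7 (1.48 FPKM) stood above PARP1 (1.39 FPKM). In control oocytes PARP1 came first, with 2.13 to 2.18 FPKM, and SIRT1 second, with 1.86 to 1.92 FPKM, and these ranges did not overlap. In heat-stressed and in NMN-supplemented oocytes SIRT1 came first, above PARP1 in every sample. SIRT1 stood between the percentiles 80.5 and 84.7 of the genes above 0 in its sample, and PARP1 between 74.7 and 82.2. SIRT7, SIRT4, SIRT3 and SIRT6 followed at 0 to 1.48 FPKM. SIRT5, PARP2, SIRT2 and CD38 stayed at or below 0.195 FPKM in every sample. Below the leading pair, neighbours in the order mostly overlapped: in control oocytes SIRT4, SIRT6 and SIRT3 could not be ranked against each other, and in heat-stressed oocytes SIRT5 overlapped both PARP2 above it and SIRT6 below it.

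**Figure D1:**
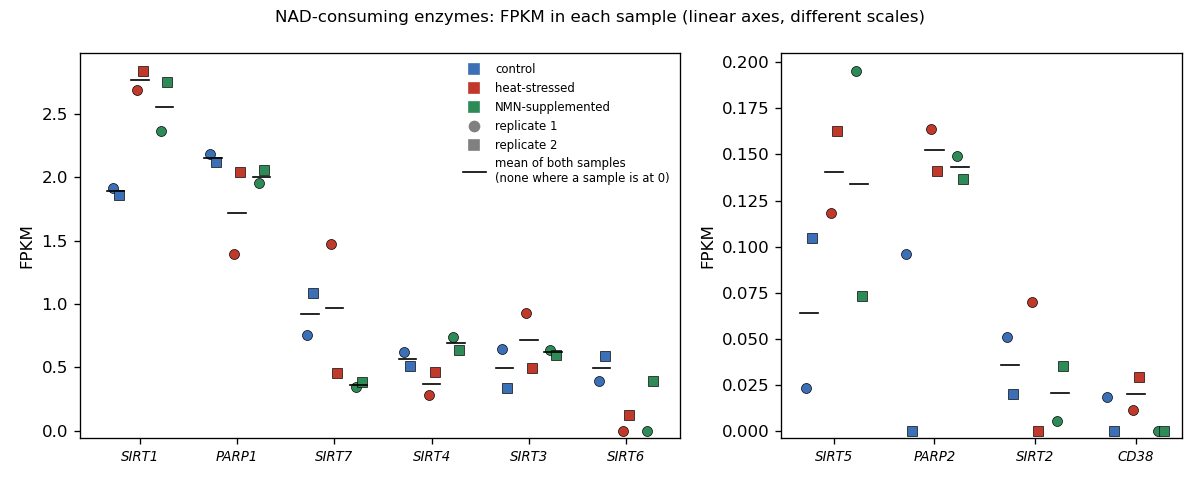
FPKM of the 10 members in each of the 6 samples, on linear axes with different scales for the left and right panels. Colours give the groups, circles and squares replicates 1 and 2, and black lines the mean of both samples where neither is at 0. SIRT1 lies at 1.86 to 1.92 FPKM in control oocytes and at 2.36 to 2.84 FPKM in all 4 heated samples.

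The groups were compared with limma on log2(FPKM + 1), a scale on which differences of low genes come out smaller than their FPKM ratios. Genes with a mean of at least 1 FPKM over the 6 samples were tested, which 4713 genes and only 2 members, SIRT1 and PARP1, reached. A gene is called where its unadjusted P is under 0.05. With heat stress against control, 1 of the 2 tested members was called, beside 22.8% of all tested genes. With NMN against heat stress 0 of the 2 were called by limma at an unadjusted P under 0.05, beside 13.6% of all tested genes, and with NMN against control 1 of the 2, beside 41.3%. After Benjamini-Hochberg adjustment no member passed 0.05 in any of the 3 comparisons, beside 0, 0 and 21.5% of all tested genes. The limma counts of all genes at an adjusted P under 0.05 were 0, 0 and 1015 in that order, against 1074, 641 and 1948 at an unadjusted P under 0.05. Both comparisons with the heat-stressed samples share those samples, as both comparisons with controls share the controls. When the minimum mean was set to 0.1 FPKM, 11651 genes and 8 members (all but SIRT2 and CD38) were tested, and limma called 2 members with heat stress (16.0% of genes), 1 with NMN against heat stress (9.96%) and 1 with NMN against control (27.8%). These counts do not set the members apart from other genes.

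SIRT1, a deacetylase of histones and of transcription factors such as p53 and the FOXO proteins, was higher in heated oocytes. The gene lies on chromosome 14 (71091167 to 71126351, plus strand, Sscrofa11.1). It had 1.92 and 1.86 FPKM in the control samples, 2.69 and 2.84 FPKM in the heat-stressed samples, and 2.36 and 2.75 FPKM in the NMN-supplemented samples. Every heated sample, with or without NMN, was above both controls, and the NMN-supplemented samples overlapped the heat-stressed ones. The group means were 1.89 ± 0.0428, 2.77 ± 0.104 and 2.56 ± 0.273 FPKM (SD, n = 2), so the heat-stressed mean was 1.47 times the control mean. The log2 difference of (FPKM + 1) in heat-stressed over control oocytes was 0.38 (SE 0.12, 95% interval 0.09 to 0.67, limma, unadjusted P = 0.0191, adjusted P = 0.167). The call was lost without control replicate 2, where the difference was 0.37 (limma, unadjusted P = 0.0612), and without heat-stressed replicate 2, where it was 0.35 (limma, unadjusted P = 0.0730). It was also lost when samples were scaled to the same FPKM sum outside the mitochondrial genome (0.14), a sum that includes the pseudogene of heat-stressed replicate 1, and held at 0.39 when that pseudogene and RN5-8S were left out of the sum. In NMN-supplemented over control oocytes the difference was 0.30 (SE 0.12, 95% interval 0.01 to 0.59, limma, unadjusted P = 0.0472, adjusted P = 0.116), and this call was lost without any 1 of the 6 samples. Between NMN-supplemented and heat-stressed oocytes it was −0.08 (95% interval −0.38 to 0.21, limma, unadjusted P = 0.498), an interval that covers lower and higher levels with NMN. In a pool of oocytes, fewer oocytes that hold a transcript and less of it per oocyte cannot be told apart.

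The sequence before the start of SIRT1 is shown because SIRT1 was the single tested member called with heat, and heat shock factors bind inverted repeats of GAA. It covers the 250 bases upstream, at chr14:71090917-71091166 on the plus strand of Sscrofa11.1, and capitals mark CpG dinucleotides.
SIRT1 promoter: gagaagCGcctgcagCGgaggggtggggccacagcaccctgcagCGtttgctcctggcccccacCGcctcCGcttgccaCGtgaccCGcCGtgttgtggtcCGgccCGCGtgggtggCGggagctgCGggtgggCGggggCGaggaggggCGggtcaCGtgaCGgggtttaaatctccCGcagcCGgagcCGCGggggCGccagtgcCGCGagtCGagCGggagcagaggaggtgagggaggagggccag
This window holds 27 CpG dinucleotides, against a median of 12 over 19528 such windows of genes in the table, and 16.1% of the windows hold as many or more. The inverted repeats searched were GAANNTTC and TTCNNGAA, each of which reads the same on both strands. Neither is in the SIRT1 window, nor in those of the other sirtuins or of PARP1 and PARP2, while the CD38 window holds 2. Of all windows 10.5% hold at least 1 of them.

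The 3′ untranslated region annotated for SIRT1 was the longest among the members. Maternal mRNAs with a cytoplasmic polyadenylation element (CPE) bind CPEB, which controls the length of their poly(A) tails during oocyte maturation. The longest annotated SIRT1 transcript, taken from the RefSeq annotation of Sscrofa11.1, has 7040 bases and a 3′ untranslated region of 5194 bases, against a median of 975 over 17649 genes, of which 5.52% have one as long or longer. It is 1 of 3 annotated SIRT1 transcripts and begins at 71110792, inside the gene. It thus lacks the start of the gene and does not follow the window shown above. Its 3′ untranslated region holds 7 matches to TTTTAT or TTTTAAT, read in the direction of the mRNA. Of these genes 10.2% hold as many or more, a share that does not allow for length. The last 100 bases of this SIRT1 transcript hold neither AATAAA nor ATTAAA, at least 1 of which is found there in 70.2% of these genes. Those of SIRT5 and CD38 hold neither as well. The matches nearest to the annotated end lie 334 and 226 bases before it and are shown with their surroundings, with the match in capitals. Their labels number sequence matches only, and binding of CPEB was not tested. The second lies in the stretch that SIRT1 shares with HERC4, described below.
SIRT1 CPE 6 (chr14:71126001-71126030, plus strand): taattttttccTTTTATaaattcccagaat
SIRT1 CPE 7 (chr14:71126109-71126138, plus strand): gagcataactaTTTTATtacaaaacttaac
CD38 had 5 matches in 1588 bases, and SIRT3, SIRT4 and SIRT7 had 2 each in 469, 486 and 1351 bases. SIRT2, SIRT5, SIRT6, PARP1 and PARP2 had 0. Relative to length, SIRT1 had the fewest matches of the members that had any. SIRT5 is annotated with 8 bases of 3′ untranslated region, so little could be searched there. At least 1 match is found in 57.3% of the genes with at least 50 bases of this region. This SIRT1 transcript, which lacks the start of the gene, is also the poorest in G and C among the members, at 36.3%, whereas the others range from 45.4% to 62.3%.

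The last 252 exonic bases of SIRT1 overlap the end of HERC4, a ubiquitin ligase gene on the minus strand, and the table gives both genes the same locus. Neither the labels nor the methods state that strand was kept, so fragments from this overlap cannot be assigned. HERC4 stood at 0.103 to 0.194 FPKM, and SIRT1 was 11.3 to 18.7 times as high in the same sample. HERC4 samples of the 3 groups overlapped.

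SIRT6, which acts on telomeric chromatin and in DNA repair, and SIRT7, a sirtuin of the nucleolus, did not reach the minimum of 1 FPKM. SIRT6 (chromosome 2, 74568539 to 74577774) had 0.396 and 0.593 FPKM in control samples, was listed at 0 and at 0.126 FPKM in heat-stressed samples, and at 0 and 0.394 FPKM in NMN-supplemented samples. Both controls were above all 4 heated samples, by a narrow gap to NMN-supplemented replicate 2. At the minimum of 0.1 FPKM the log2 difference of SIRT6 with heat stress was −0.49 (SE 0.18, limma, unadjusted P = 0.0428, adjusted P = 0.298). With a pseudocount of 0.1 FPKM in place of 1 it was −1.96 and no longer called (limma, unadjusted P = 0.0726). The call was also lost without any 1 of the control and heat-stressed samples, with differences from −0.59 to −0.40.
SIRT7 (chromosome 12, 1078155 to 1084112) had 0.757 and 1.09 FPKM in control, 1.48 and 0.455 FPKM in heat-stressed and 0.343 and 0.384 FPKM in NMN-supplemented oocytes. The heat-stressed samples lay on either side of the controls, while both NMN-supplemented samples were below the other 4. At the minimum of 0.1 FPKM the log2 difference between NMN-supplemented and heat-stressed oocytes was −0.48 (95% interval −1.17 to 0.22, limma, unadjusted P = 0.137). The size of this difference depended on which heat-stressed sample was kept, as it was −0.09 without replicate 1 and −0.86 without replicate 2. With NMN over control the SIRT7 difference was −0.49 (95% interval −1.19 to 0.20, limma, unadjusted P = 0.128). This interval rests on a spread shared by all groups. The heat-stressed samples, which are not in this comparison, were the furthest apart, at 1.48 and 0.455 FPKM. The difference was −0.62 without control replicate 1 and −0.37 without control replicate 2.

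SIRT2, the cytoplasmic sirtuin that deacetylates α-tubulin, was listed near 0 in every sample. On chromosome 6 (47682427 to 47703408), it had 0.0511 and 0.0201 FPKM in control, 0.0698 and 0 FPKM in heat-stressed and 0.00526 and 0.0354 FPKM in NMN-supplemented oocytes. The groups overlapped, and SIRT2 stayed at or below the percentile 24.3 of the genes above 0.

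Among the mitochondrial sirtuins, SIRT4 was the member that was lower with heat stress and higher with NMN in every sample. SIRT4, an ADP-ribosyltransferase and lipoamidase that restrains glutamate dehydrogenase, lies on chromosome 14 (40290288 to 40303887). Its levels were 0.626 and 0.508 FPKM in control, 0.283 and 0.461 FPKM in heat-stressed and 0.741 and 0.638 FPKM in NMN-supplemented oocytes. The heat-stressed samples were below both other groups, and the NMN-supplemented samples were narrowly above the controls. The means were 0.567 ± 0.0830, 0.372 ± 0.126 and 0.689 ± 0.0725 FPKM (SD, n = 2), so the NMN-supplemented mean was 1.85 times the heat-stressed one. At the minimum of 0.1 FPKM the log2 difference of NMN-supplemented over heat-stressed oocytes was 0.30 (SE 0.11, 95% interval 0.03 to 0.58, limma, unadjusted P = 0.0369, adjusted P = 0.487), and that of heat-stressed over control oocytes was −0.19 (95% interval −0.47 to 0.08, limma, unadjusted P = 0.130). The difference with heat stress was −0.10 without heat-stressed replicate 1 and −0.29 without heat-stressed replicate 2. The call with NMN was lost without any 1 of the samples other than heat-stressed replicate 2, with differences from 0.21 to 0.35. LOC102165911 lies across SIRT4 on the other strand without a shared exonic base, and its level was 0.0314 to 0.230 FPKM in control and heat-stressed samples and 0.0101 to 0.0113 FPKM with NMN.
SIRT3, the main deacetylase of mitochondrial enzymes, had 0.648 and 0.336 FPKM in control, 0.933 and 0.492 FPKM in heat-stressed and 0.640 and 0.597 FPKM in NMN-supplemented oocytes (chromosome 2, 38465 to 55074). All 3 groups overlapped. SIRT5, which removes succinyl and malonyl groups, had 0.0230 and 0.105 FPKM in control, 0.118 and 0.163 FPKM in heat-stressed and 0.195 and 0.0730 FPKM in NMN-supplemented oocytes (chromosome 7, 9951024 to 9968004). The heat-stressed samples were just above the controls. No comparison of SIRT3 or SIRT5 was called by limma at the minimum of 0.1 FPKM, where the smallest unadjusted P was 0.252.

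**Figure D2:**
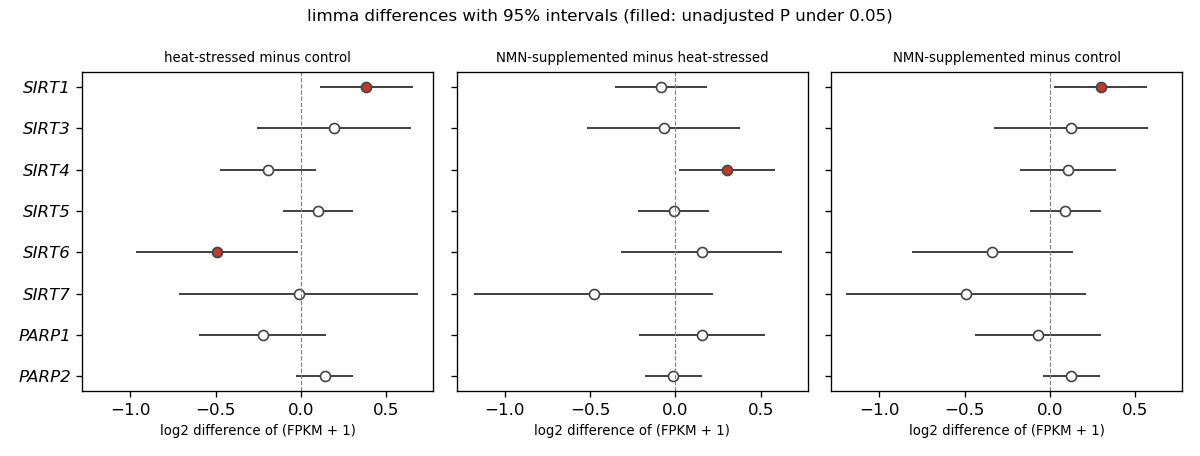
Differences of log2(FPKM + 1) between groups for the 8 members with a mean of at least 0.1 FPKM, from limma on 11651 genes. Points are the estimates, bars their 95% intervals, and filled points have an unadjusted P under 0.05. SIRT1 is filled in both comparisons with control oocytes, SIRT6 with heat stress against control and SIRT4 with NMN against heat stress.

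PARP1, the principal sensor of DNA breaks in this family, lies on chromosome 10 (14203157 to 14241164). It had 2.18 and 2.13 FPKM in control, 1.39 and 2.04 FPKM in heat-stressed and 1.96 and 2.06 FPKM in NMN-supplemented oocytes. All 4 heated samples were below both controls, but 5 of the 6 samples lay within 1.96 to 2.18 FPKM and heat-stressed replicate 1 stood alone below them. The means were 2.15 ± 0.0409, 1.72 ± 0.459 and 2.01 ± 0.0713 FPKM (SD, n = 2). The log2 difference of (FPKM + 1) with heat stress was −0.22 (SE 0.15, 95% interval −0.60 to 0.15, limma, unadjusted P = 0.189, adjusted P = 0.405). It was −0.05 without heat-stressed replicate 1 (limma, unadjusted P = 0.735). Without heat-stressed replicate 2 it was −0.40 and called (limma, unadjusted P = 0.0425). With NMN over heat stress it was 0.16 (95% interval −0.22 to 0.53, limma, unadjusted P = 0.343), which turned to −0.02 without heat-stressed replicate 1 and was 0.33 without heat-stressed replicate 2. Between NMN-supplemented and control oocytes it was −0.07 (95% interval −0.44 to 0.30, limma, unadjusted P = 0.661).
PARP2, which shares the DNA break response with PARP1, was far lower. On chromosome 7 (78535072 to 78551393), it had 0.0959 and 0 FPKM in control, 0.164 and 0.141 FPKM in heat-stressed and 0.149 and 0.137 FPKM in NMN-supplemented oocytes. All 4 heated samples were above both controls. At the minimum of 0.1 FPKM the log2 differences from control were 0.14 with heat stress and 0.13 with NMN (limma, unadjusted P = 0.0791 and 0.10). They depended on which control was kept. They were 0.20 and 0.19 without control replicate 1, and 0.07 and 0.06 without control replicate 2, which is listed at 0.

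CD38, the NAD glycohydrolase best known from immune cells, was the lowest member, listed at or near 0. On chromosome 8 (11083682 to 11130783), it had 0.0185 and 0 FPKM in control and 0.0112 and 0.0291 FPKM in heat-stressed oocytes, and was listed at 0 in both NMN-supplemented samples. The summed level of the 9 blood markers, 2 of them at 0 in all samples, was 0.962 to 1.19 FPKM for control samples, 0.729 to 0.961 FPKM with heat stress and 0.178 to 0.455 FPKM with NMN, and its part in the CD38 values was not tested.

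Among all 10 members, samples with heat stress and controls did not overlap for 6 genes, of which SIRT1, SIRT5 and PARP2 were higher and SIRT4, SIRT6 and PARP1 lower. For the 20552 genes above 0 in any sample this share was 37.1%, with 17.4% higher and 19.6% lower. With NMN against heat stress 3 members did not overlap, SIRT4 higher and SIRT7 and CD38 lower, beside 35.2% of those genes (17.5% higher, 17.7% lower). With NMN against control 6 did not, with SIRT1, SIRT4 and PARP2 higher and SIRT6, SIRT7 and PARP1 lower, beside 46.7% (20.5% higher, 26.2% lower).

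In the sums that follow, SIRT2 or SIRT6 counts as 0 in the 3 heated samples where it is listed so. The 7 sirtuins summed to 4.42 and 4.51 FPKM in control, 5.58 and 4.54 FPKM in heat-stressed and 4.29 and 4.87 FPKM in NMN-supplemented oocytes, with overlap between the groups. SIRT1 made up 43.4% and 41.2% of this sum in the controls, 48.3% and 62.6% with heat stress and 55.1% and 56.4% with NMN, so its share was higher in each heated sample than in either control. Without SIRT1 the sum was 2.5 and 2.65 FPKM in control, 2.88 and 1.70 FPKM in heat-stressed and 1.92 and 2.12 FPKM in NMN-supplemented oocytes. Heat-stressed replicate 1, in which SIRT7 and SIRT3 were at their highest, had the largest of these sums.
A ratio of 2 genes in the same sample does not depend on how samples were scaled. SIRT1 over PARP1 was 0.879 and 0.875 in the controls, 1.93 and 1.39 with heat stress and 1.21 and 1.34 with NMN. It was below 1 in both controls and above 1 in all 4 heated samples, and the heat-stressed ratios were above both NMN-supplemented ones. The highest ratio is that of heat-stressed replicate 1, the sample with the low PARP1.

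**Figure D3:**
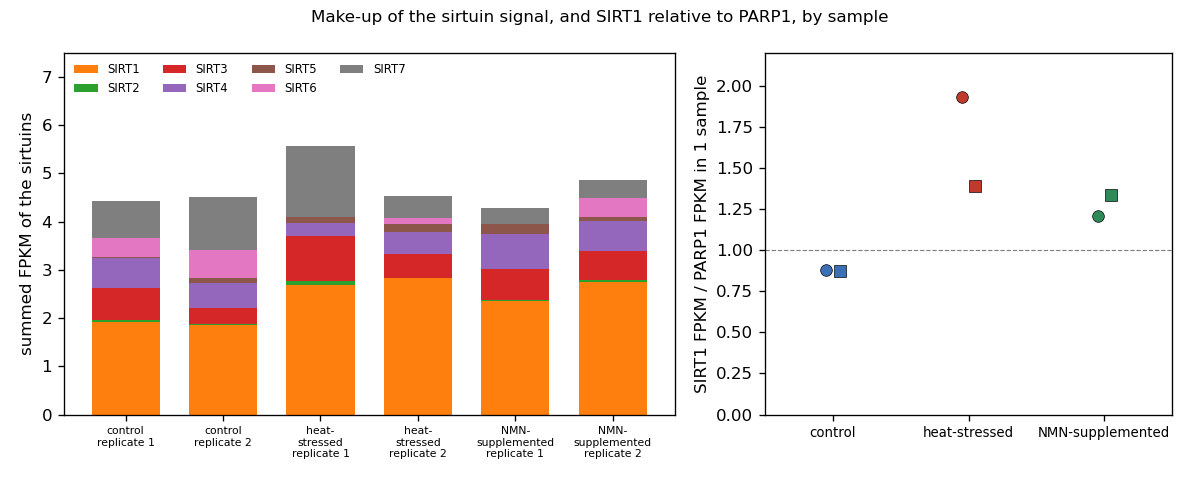
Left, stacked FPKM of the 7 sirtuins in each sample, from 0. Right, SIRT1 FPKM divided by PARP1 FPKM in each sample, with a dashed line at 1, circles for replicate 1 and squares for replicate 2. SIRT1 makes up 41.2% to 43.4% of the stack in control and 48.3% to 62.6% in heated oocytes, and the ratio is 0.875 to 0.879 in control and 1.21 to 1.93 in heated oocytes.

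Among the other ADP-ribosyltransferases of the PARP family, 13 of 15 listed genes were in the table and 4 were tested (PARP12, PARP14, TIPARP and TNKS2). With heat stress 0 of these 4 were called by limma at an unadjusted P under 0.05. With NMN over heat stress 1 was called, higher, and with NMN over control 2 were called, both higher. The shares of all tested genes called were 22.8%, 13.6% and 41.3%, in that order. The median log2 differences of the 4 genes were 0.18, 0.27 and 0.39, beside 0.05, 0.08 and 0.11 over all tested genes. PARP14, a mono-ADP-ribosyltransferase with macrodomains, had 2.48 and 1.88 FPKM in control, 2.68 and 3.50 FPKM in heat-stressed and 4.44 and 4.59 FPKM in NMN-supplemented oocytes. The 3 groups did not overlap. The log2 difference of PARP14 was 0.36 with heat stress (limma, adjusted P = 0.246), 0.44 with NMN over heat stress (limma, unadjusted P = 0.0356, adjusted P = 0.354) and 0.80 with NMN over control (SE 0.16, limma, adjusted P = 0.0294). The call for NMN over heat stress was lost without heat-stressed replicate 1 (0.29) and without either NMN-supplemented sample (0.46 and 0.42). It was also lost with the replicate block, and with the same sum outside the mitochondrial genome (0.72), both at a limma unadjusted P = 0.0598. Leaving LOC100513953 and RN5-8S out of that sum did not restore it (0.43, limma, unadjusted P = 0.0599). With heat stress PARP14 was called without control replicate 1 (0.50) or heat-stressed replicate 1 (0.51). TIPARP, a mono-ADP-ribosyltransferase of the aryl hydrocarbon receptor pathway, had 3.64 and 2.69 FPKM in control, 3.94 and 3.22 FPKM in heat-stressed and 4.89 and 4.87 FPKM in NMN-supplemented oocytes, and its log2 difference between NMN-supplemented and control oocytes was 0.51 (limma, unadjusted P = 0.0206, adjusted P = 0.0707). That call was lost without control replicate 2 (0.34), without either NMN-supplemented sample (0.50 and 0.51), and with the same sum outside the mitochondrial genome (0.53). In a fit of only the 2 compared groups, TIPARP was called higher with NMN over heat stress (0.36, limma, unadjusted P = 0.0407).

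Of 8 listed repair factors that work with PARP1 and PARP2, 7 were in the table and 1 was tested. This was LIG3, the DNA ligase that seals single-strand breaks, in the nucleus with XRCC1 and in mitochondria without it. LIG3 (chromosome 12, 40153105 to 40205077) had 3.61 and 3.67 FPKM in control, 2.26 and 2.58 FPKM in heat-stressed and 1.30 and 1.57 FPKM in NMN-supplemented oocytes. The 3 groups did not overlap, and each step was called lower. The log2 difference of LIG3 was −0.44 with heat stress (SE 0.12, limma, unadjusted P = 0.0129, adjusted P = 0.147), −0.49 with NMN over heat stress (limma, unadjusted P = 0.00843, adjusted P = 0.268) and −0.93 with NMN over control (limma, adjusted P = 0.0210). The call was lost without heat-stressed replicate 1 in the first of these (−0.38, limma, unadjusted P = 0.0622) and without NMN-supplemented replicate 1 in the second (−0.41, limma, unadjusted P = 0.0608). Both were also lost with the same sum outside the mitochondrial genome, at −0.69 and −0.26 (limma, unadjusted P = 0.0589 and 0.483). They held when LOC100513953 and RN5-8S were left out of that sum. XRCC1 was listed at 0 in heat-stressed replicate 1 and NMN-supplemented replicate 1 and at no more than 0.0973 FPKM in the others.

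Of the enzymes and carriers that make, salvage or move NAD, 15 of 16 were in the table and 4 were tested (NMNAT1, NADK, NNT and SLC25A51). With heat stress 1 of these was called, higher, and with NMN over heat stress 0 were called by limma at an unadjusted P under 0.05. With NMN over control 2 were called, both higher. Of all tested genes 22.8%, 13.6% and 41.3% were called in these comparisons, in that order. The median log2 differences of the list were 0.27, 0.11 and 0.33, beside 0.05, 0.08 and 0.11 over all tested genes. SLC25A51, the carrier that brings NAD into mitochondria, had 14.7 and 12.7 FPKM in control, 21.3 and 20.1 FPKM in heat-stressed and 24.3 and 20.3 FPKM in NMN-supplemented oocytes. All 4 heated samples were above both controls, and the NMN-supplemented samples overlapped the heat-stressed ones. The log2 difference of SLC25A51 was 0.57 with heat stress (SE 0.14, limma, unadjusted P = 0.00789, adjusted P = 0.134) and 0.66 with NMN over control (limma, adjusted P = 0.0320), and both calls were lost with the same sum outside the mitochondrial genome (0.22 and 0.68). Both held when LOC100513953 and RN5-8S were left out of that sum. NNT, the mitochondrial transhydrogenase that links NADH and NADPH, had 2.07 and 2.15 FPKM in control, 2.61 and 2.47 FPKM in heat-stressed and 2.88 and 2.99 FPKM in NMN-supplemented oocytes, in a locus listed for 2 genes, and its log2 difference with NMN over control was 0.34 (limma, unadjusted P = 0.0230, adjusted P = 0.0754). The NNT call was lost without control replicate 1 (0.32) without either NMN-supplemented sample (0.36 and 0.32), and with the same sum outside the mitochondrial genome (0.36).

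Of 20 names listed for sirtuin substrates, 18 were in the table and 5 were tested. At the settings used for all tested genes, in both comparisons with heat-stressed oocytes 0 of them were called by limma at an unadjusted P under 0.05. With NMN over control 1 was higher and 2 were lower. The shares of all tested genes called were 22.8% with heat stress, 13.6% with NMN over heat stress and 41.3% with NMN over control. GLUD1, the glutamate dehydrogenase that SIRT4 modifies, had 3.44 and 3.75 FPKM in control, 3.75 and 4.37 FPKM in heat-stressed and 4.97 and 5.0 FPKM in NMN-supplemented oocytes, with a log2 difference of 0.38 for NMN over control (limma, unadjusted P = 0.0209, adjusted P = 0.0710), a call lost without control replicate 1 (0.33) without either NMN-supplemented sample (0.38 in both), and with the same sum outside the mitochondrial genome (0.40). TUBA1B, an α-tubulin and as such a substrate of SIRT2, had 108 and 120 FPKM in control, 103 and 81.1 FPKM in heat-stressed and 76.4 and 66.8 FPKM in NMN-supplemented oocytes, with a log2 difference of −0.67 for NMN over control (limma, unadjusted P = 0.00686, adjusted P = 0.0407), a call lost with the same sum outside the mitochondrial genome (−0.65). Its table locus is shared with 3 other genes, TUBA1A among them, so reads may be split between near-identical tubulins. After quantile normalization TUBA1B was also called lower with heat stress (−0.30, limma, unadjusted P = 0.0401) and with NMN over heat stress (−0.44, limma, unadjusted P = 0.00978). The latter was also called with the same sum outside the mitochondrial genome, LOC100513953 and RN5-8S (−0.36, limma, unadjusted P = 0.0318). TUBA4A, another α-tubulin, had 0.892 and 2.54 FPKM in control and 0.593 and 0.0998 FPKM in NMN-supplemented oocytes, with a log2 difference of −0.97 (limma, unadjusted P = 0.0308, adjusted P = 0.0887) that rested on control replicate 2 and NMN-supplemented replicate 2, without which it was −0.52 and −0.70 and not called, as after quantile normalization (−0.75). In a fit of only the 2 compared groups, TUBA4A was called lower with NMN over heat stress (−0.64, limma, unadjusted P = 0.0486).

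The remaining lists held few genes above the minimum. None of 4 other NAD hydrolases (BST1, SARM1, NUDT12 and NUDT13) was tested, and NUDT13 was the highest of them at a mean of 0.631 FPKM. Of 8 genes in the table that remove or bind ADP-ribose 1 was tested, OARD1, of 4 sirtuin regulators 1 was tested, USP22, and of 11 zinc-dependent deacetylases, which do not use NAD, 1 was tested, HDAC3. These 3 genes were called in 0 of the 3 comparisons by limma at an unadjusted P under 0.05, beside 22.8%, 13.6% and 41.3% of all tested genes. HDAC3, at 1.65 to 2.41 FPKM, was near the level of SIRT1 and PARP1.

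**Figure D4:**
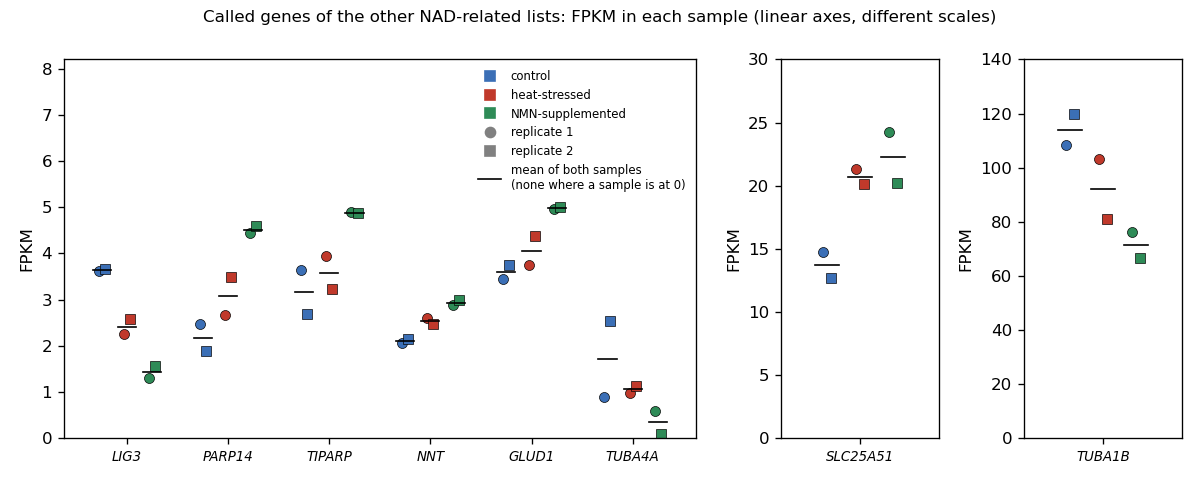
FPKM in each sample of the 8 genes called in any comparison from the other NAD-related lists, on linear axes from 0 with different scales. Colours, symbols and mean lines are those of the plot of member levels. LIG3 falls from 3.61 to 3.67 FPKM in control to 1.30 to 1.57 FPKM with NMN, and SLC25A51 is higher in the 4 heated samples (20.1 to 24.3 FPKM) than in control (12.7 to 14.7 FPKM).

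The genes most like the tested members over the 6 samples were named by the Pearson correlation of log2(FPKM + 1), as a description. TMEM220 (r = 0.982) and CEP120, a centriole protein (r = 0.979), came closest to SIRT1. The table locus of TMEM220 is shared with 107 other genes. TMEM220 had 0.650 and 0.449 FPKM in control and 1.33 to 2.17 FPKM in the heated samples. For PARP1 they were CAPN12, a calpain protease whose locus is shared with 2 other genes (r = 0.980), and LDOC1 (r = 0.972). LDOC1 had 19.0 and 21.0 FPKM in control and 8.17 FPKM in heat-stressed replicate 1, where PARP1 was lowest as well. Of the 4712 other tested genes, 23 were above 0.95 with SIRT1 and 7 with PARP1.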

How the data were processed

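Oocyte RNA was sequenced in 2 samples for each of the 3 groups, which were assigned by the treatment in their labels. The authors trimmed reads with cutadapt and aligned them with tophat2 to susScr11, which is Sscrofa11.1, and the submitters' processing notes name Cufflinks 2.2.1, Cuffnorm and Cuffdiff. The authors deposited FPKM values per gene and sample, which were used here. The fold changes, P-values and q-values of the authors' own comparisons, and their lists of selected genes, were not used. Depth is unknown, so no counting interval is given.

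Values were taken as log2(FPKM + 1). The 4713 genes with a mean of at least 1 FPKM entered a single limma model (version 3.58.1, R 4.3.3) of the 3 groups with a variance trend, in which all 6 samples share 1 estimate of the spread. Benjamini-Hochberg adjustment covered every tested gene. An exact two-sided permutation test of 2 against 2 samples cannot give a P below 0.333 and was not run. Gene positions, transcripts and sequences are from the RefSeq annotation and genome of Sscrofa11.1, whose chromosome accessions match the table. Upstream windows start at the annotated gene, and 3′ regions are those of the longest transcript. Protein sequences were not used here. Remaining steps ran in Python 3.11.15 (pandas 2.3.3, matplotlib 3.10.9).

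The members and gene lists were chosen with earlier results of these data known. All members are named, as are the genes of the other lists, markers included, with an unadjusted P under 0.05 in any comparison, and the 2 genes most correlated with each tested member. GAPDH, HERC4, LOC102165911, XRCC1, NUDT13 and the tested genes of lists without a call were named after their values were seen. The alternatives were another pseudocount (0.1 FPKM), other minima (0.1, 5 or none), quantile normalization, scaling to the same median or to the same sum outside the mitochondrial genome, a replicate block, a fit restricted to the compared pair of groups, no variance trend, and leaving out each sample. A joint change of minimum and pseudocount, leaving out each sample at the minimum of 0.1, and a rescaling without LOC100513953 and RN5-8S were added after seeing the data.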

Additional observations from a re-analysis of the deposited data

How the results depend on the processing

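With a pseudocount of 0.1 FPKM, quantile normalization or no variance trend, the calls of SIRT1 and PARP1 stood as reported. Members called with heat stress numbered 2 at a minimum mean of 0.1 FPKM (SIRT1 higher, SIRT6 lower) and 0 after rescaling to the same sum outside the mitochondrial genome. At the minimum of 1 FPKM the number also changed with the sample left out. There the differences with heat stress were 0.35 to 0.41 for SIRT1 and −0.40 to −0.05 for PARP1. With NMN over heat stress 1 member, SIRT4, was called at a minimum of 0.1, with no minimum, and with minimum and pseudocount both at 0.1, and 0 of SIRT1 and PARP1 when any sample was left out. At the minimum of 0.1 and without heat-stressed replicate 2, 3 members were called (SIRT4 and PARP1 higher, SIRT7 lower). With NMN over control the count was 0 after scaling to the same median, after either rescaling, with only the compared groups, with the replicate block and, at the minimum of 1, when any sample was left out. At a minimum of 5 FPKM no member was tested. With a sample left out, its partner is assumed to vary like the other groups.

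All genes called with heat stress numbered 1865, 468, 2388, 562 and 1800 at a minimum of 0.1, a minimum of 5, no minimum, the same sum outside the mitochondrial genome, and a minimum and pseudocount of 0.1, against 1074, and 648 (without control replicate 2) to 1015 with a sample left out. For NMN over heat stress they numbered 1161, 266, 1557, 269 and 1276, against 641, and 327 (without NMN-supplemented replicate 1) to 701, with 383 without NMN-supplemented replicate 2 and 418 without heat-stressed replicate 1. For NMN over control they numbered 3236, 791, 3700, 789 and 3240, against 1948, and 1233 (without NMN-supplemented replicate 1) to 1941. The split of 598 higher and 476 lower genes with heat stress was 34 and 528 with the same sum outside the mitochondrial genome, 818 and 1047 at a minimum of 0.1. That of 337 and 304 with NMN over heat stress was 218 and 310 after quantile normalization and 182 and 87 with the same sum. That of 1208 and 740 with NMN over control was 279 and 510 with the same sum. This rescaling divides by a sum to which LOC100513953 adds 40366 FPKM in heat-stressed replicate 1, and it moved the median log2 difference of all genes with heat stress from 0.05 to −0.22. Without LOC100513953 and RN5-8S the median was 0.05, SIRT1 was called with heat stress (0.39), and the NMN over heat stress split was 224 and 327. There SLC25A51, LIG3, TIPARP, NNT, GLUD1 and TUBA1B kept the calls given above, while PARP14 lost its call with NMN over heat stress (0.43). Relative to the median of all genes SIRT1 was higher with heat stress by 0.33 to 0.36 (log2) under every scaling.

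Differences that turned sign under the same sum outside the mitochondrial genome were those of TIPARP (−0.14), NNT (−0.0615) and GLUD1 (−0.14) with heat stress, and of SIRT1 (0.18) and TUBA1B (0.0316) with NMN over heat stress. SLC25A51 with NMN over heat stress turned to −0.0129 after quantile normalization and −0.0309 without NMN-supplemented replicate 1 (up to 0.22 with another sample left out). Without control replicate 2, TIPARP (−0.0215, up to 0.31) and TUBA4A (0.12, down to −0.78) turned with heat stress, and without heat-stressed replicate 1 PARP1 turned with NMN over heat stress (−0.0176, up to 0.33). The cause was not tested. None of these was called where it turned. With the replicate block, SIRT1 over control was called with heat stress (limma, unadjusted P = 0.0349) and not with NMN (limma, unadjusted P = 0.0745). The samples share only a number: deviations of same-numbered samples correlated at −0.03, 0.01 and −0.01.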
